A study of Mus musculus with 2 samples.

Results

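The striated and cardiac muscle microRNAs of the embryonic face were taken as 9 hairpin genes named by symbol, Mir1a-1, Mir1a-2, Mir133a-1, Mir133a-2, Mir133b, Mir206, Mir208a, Mir208b and Mir499, of which 8 were analysed among the 1973 miRNA genes of the tables. Mir1a-2 was not analysed here. The small RNA libraries came from facial prominences, the outgrowths that build the face and jaws, of healthy B6NCrl mouse embryos at 10.5 days, with both sexes pooled. Replicate 2 was a pool of 51 embryos and replicate 1 a pool of 69 embryos, and these 2 biological replicates form the only group, with no other stage, tissue or treatment. Levels are in CPM, the count of a gene scaled to all reads assigned to miRNA genes on their own strand, of which replicate 2 had 3517226 and replicate 1 had 2853511. For a gene with 0 counts, the value of 3 counts, 0.853 CPM in replicate 2 or 1.05 CPM in replicate 1, is given as a one-sided limit. Intervals are two-sided exact Clopper-Pearson 95% intervals, whose upper end at 0 counts is somewhat higher (1.05 CPM in replicate 2 and 1.29 CPM in replicate 1). They cover counting error only and hold no spread between pools. PCR copies of a read are not independent molecules, so the intervals may be too narrow even for counting error.

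MicroRNAs guide silencing complexes to messenger RNAs through a short seed near their 5′ end. Muscle cells carry a small set of them, the myomiRs. The miR-1 and miR-133 families are made from shared transcripts in skeletal and heart muscle and are known as regulators of muscle differentiation and proliferation, and Mir206 and Mir133b form the related locus of skeletal muscle. Mir208a, Mir208b and Mir499 sit inside myosin heavy chain genes and are processed from the introns of their hosts. Myh6 and Myh7 encode the main cardiac myosins, Myh7 also serving slow skeletal fibres, and Myh7b is a relative expressed in heart and slow muscle. In the embryonic face, muscle forms from cranial mesoderm that migrates into the pharyngeal arches.

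The mature sequences of the 5 genes of the skeletal and cardiac myosin loci are shown because their seeds group them and because the counts of a gene sum both arms of its hairpin. They are from RefSeq (GRCm38.p6), 5′ to 3′, with the seed (bases 2 to 8) in capitals.
miR-208a-3p: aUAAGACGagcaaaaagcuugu
miR-208b-3p: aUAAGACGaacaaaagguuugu
miR-499-5p: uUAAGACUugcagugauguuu
miR-208a-5p: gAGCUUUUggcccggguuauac
miR-208b-5p: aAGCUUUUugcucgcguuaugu
miR-499-3p: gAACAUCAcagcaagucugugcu
miR-206-3p: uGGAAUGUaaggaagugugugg
miR-206-5p: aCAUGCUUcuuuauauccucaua
miR-133b-3p: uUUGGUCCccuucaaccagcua
miR-133b-5p: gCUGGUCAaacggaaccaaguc
The 3p arms of Mir208a and Mir208b share the seed UAAGACG and are identical at 19 of 22 bases. They differ by G10A, A16G and C18U, with the base of miR-208a first and positions counted from the 5′ end. The 5p arm of Mir499 has the seed UAAGACU, which differs from that of this pair only in its last base. Among the 1738 mature sequences of the table, no gene outside Mir208a, Mir208b and Mir499 had the first 6 bases of that seed. The seed of miR-206-3p was also that of Mir6349 and Mir6382, both with 0 counts in both libraries. The 3p arms of the Mir1a genes, known to share this seed, were not among the sequences searched.

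The hairpins of Mir208a and Mir208b, with both mature arms in capitals, are shown for how far their reads can be told apart.
Mir208a: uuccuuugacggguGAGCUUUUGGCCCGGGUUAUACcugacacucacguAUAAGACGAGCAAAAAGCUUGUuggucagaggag
Mir208b: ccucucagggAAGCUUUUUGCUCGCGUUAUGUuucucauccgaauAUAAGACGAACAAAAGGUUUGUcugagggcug
Their longest identical run on the same strand was 10 bases, shorter than a mature miRNA. The longest run that any of Mir206, Mir208a, Mir208b and Mir499 had in common with another miRNA gene, in either orientation, was 14 bases (Mir208a with Mir208b, reverse strand). The other members share more. Mir133b has a 21-base run in common with Mir133a-1, Mir1a-1 a 28-base run with Mir1a-2, and the Mir133a genes a 31-base run with each other. Reads that mapped to several places, 25.9% of all reads in replicate 2 and 27.6% in replicate 1, were not assigned to a gene, so counts of these copies cover only reads placed uniquely.

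By uniquely placed reads, Mir208b had the most counts of the 8 genes analysed in both libraries. The Mir1a and Mir133a genes were at or near 0. Their shared runs are longer than a mature miRNA, and Mir1a-2 was not analysed. The rank of Mir208b against the miR-1 and miR-133 families therefore cannot be told from these counts. The 8 genes summed to 131 CPM (95% interval 120 to 144) in replicate 2 and 80.6 CPM (70.5 to 91.7) in replicate 1, a mean of 106 ± 35.9 CPM (SD, n = 2). That is 0.0131% of counts in replicate 2 and 0.00806% in replicate 1. At least 10 counts in each library were reached by 4 of 8 genes, Mir208b, Mir206, Mir208a and Mir499, where 19.1% of all genes reached them. These 4 are the members that share no 20-base run with another miRNA gene. The 4 that share such a run had at most 2 counts in a library. Over all matched genes, 97 of 952 with a shared run (10.2%) and 279 of 942 without one (29.6%) reached that minimum. The part of the shared runs in the low counts of Mir1a-1, Mir133a-1, Mir133a-2 and Mir133b was not tested.

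**Figure D1:**
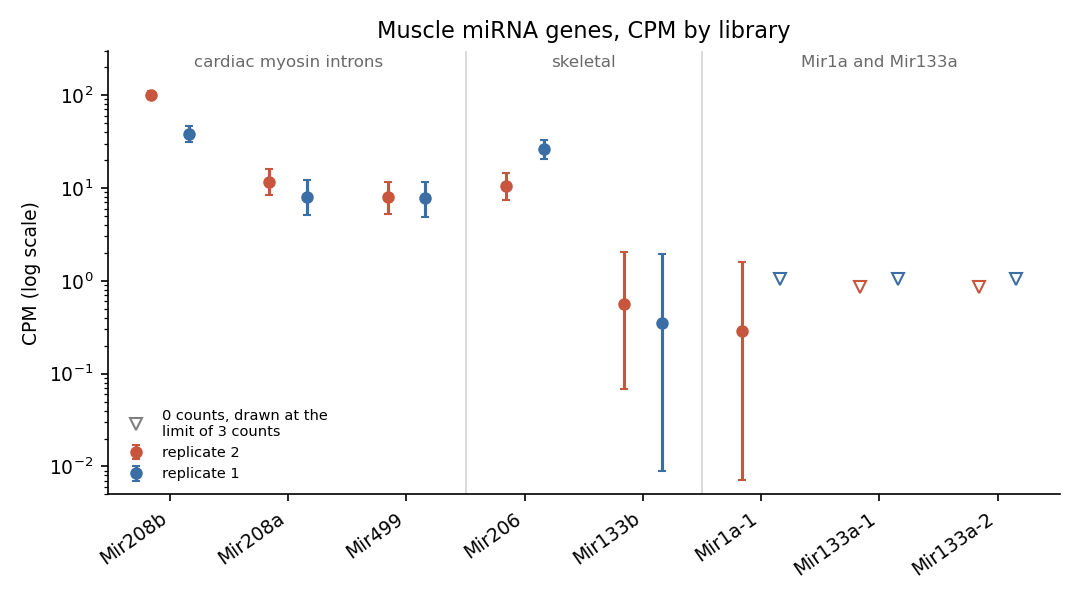
CPM on a log axis for the 8 muscle miRNA genes in replicate 2 (left of each pair) and replicate 1, with exact 95% counting intervals; open triangles mark 0 counts, drawn at the limit of 3 counts. Mir208b stood highest in both libraries, at 100.4 CPM in replicate 2 and 38.2 CPM in replicate 1, and Mir206 is the detected gene of the set that was lower in replicate 2.

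Of the cardiac myosin intron genes, Mir208b had the highest level of all members analysed, while Mir208a and Mir499 had lower means than Mir206. Mir208b (ENSMUSG00000077928.1, chromosome 14, 54975700 to 54975776, minus strand, mm10) lies in intron 31 of Myh7, the slow and cardiac beta myosin heavy chain. It had 353 counts or 100.4 CPM (90.2 to 111) in replicate 2 and 109 counts or 38.2 CPM (31.4 to 46.1) in replicate 1. The intervals of the libraries do not overlap, and replicate 2 is the higher. By count it was gene 212 of 1973 in replicate 2 and gene 253 in replicate 1. Its log2 ratio of replicate 2 over replicate 1 was 1.38 (exact 95% counting interval 1.08 to 1.72), a 2.63-fold difference, with an adjusted p of 3.2e-20 in the exact two-sided binomial test with Benjamini-Hochberg adjustment over 449 genes. That test compares the reads of these 2 libraries and not conditions, and it called 181 of the 449 genes (40.3%), 20% higher and 20.3% lower in replicate 2.

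Mir208a (ENSMUSG00000065432.1, chromosome 14, 54949060 to 54949142, minus strand) lies in intron 29 of Myh6, the alpha myosin heavy chain of the heart, 26557 bases from Mir208b. It had 41 counts or 11.7 CPM (8.37 to 15.8) in replicate 2 and 23 counts or 8.06 CPM (5.11 to 12.1) in replicate 1. These intervals overlap. The log2 ratio was 0.51 (-0.24 to 1.34) and did not pass the exact binomial test (adjusted p = 0.313). Mir208b had 8.61 times the counts of Mir208a in replicate 2 (6.22 to 12.2) and 4.74 times in replicate 1 (3.0 to 7.79). Reads of the Myh7 intron gene thus outnumbered those of the Myh6 one in each pool by more than counting error. How reads relate to the amounts of these miRNAs was not tested.

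Mir499 (ENSMUSG00000076312.1, chromosome 2, 155622880 to 155622958, plus strand) lies in intron 19 of Myh7b. It had 28 counts or 7.96 CPM (5.29 to 11.5) in replicate 2 and 22 counts or 7.71 CPM (4.83 to 11.7) in replicate 1, the closest pair of values among the detected members. Its log2 ratio was 0.04 (-0.81 to 0.92) and did not pass the exact binomial test (adjusted p = 1.0). At this depth a difference of up to 1.89-fold between the pools lies within its counting interval.

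The skeletal locus on chromosome 1 gave reads almost entirely from Mir206. Mir206 (ENSMUSG00000065559.1, 20679010 to 20679082, plus strand) lies in an intron of the long non-coding gene Gm28653. Mir133b (ENSMUSG00000065480.1, 20682769 to 20682887) overlaps an exon of the same gene, 3686 bases downstream. Mir206 had 37 counts or 10.5 CPM (7.41 to 14.5) in replicate 2 and 75 counts or 26.3 CPM (20.7 to 32.9) in replicate 1. The intervals do not overlap, and replicate 2 is the lower. The log2 ratio was -1.28 (-1.93 to -0.73), with an adjusted p of 1.46e-05 in the exact binomial test. Mir133b had 2 counts in replicate 2 and 1 count in replicate 1, at or under the limit that 3 counts set, so no ratio between the libraries is given. Mir206 had 18.5 times the counts of Mir133b in replicate 2 (4.77 to 158) and 75.0 times in replicate 1 (13.1 to 3001). Mir133b has a 21-base run in common with Mir133a-1, so this ratio is uncertain.

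The Mir1a and Mir133a genes, the general myomiRs of heart and skeletal muscle, were hardly counted. Mir1a-1 (ENSMUSG00000070144.1, chromosome 2, 180389048 to 180389124) had 1 count in replicate 2 and 0 counts in replicate 1. Mir133a-2 (ENSMUSG00000065460.1, chromosome 2, 180398379 to 180398482) and Mir133a-1 (ENSMUSG00000065399.1, chromosome 18) had 0 counts in both libraries, for which the limit of 3 counts on uniquely placed reads is 0.853 CPM in replicate 2, against 1.05 CPM in replicate 1. Mir1b is annotated on the strand opposite Mir1a-2 and covers its hairpin. On its own strand Mir1b had 21 counts in replicate 2 and 8 counts in replicate 1 (log2 ratio 0.97, adjusted p = 0.189, exact binomial test). On the strand of Mir1a-2 the same interval had 1 count in replicate 2 and 0 counts in replicate 1. None of the 8 members had a read on the opposite strand.

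By mean CPM the order was Mir208b (69.3 ± 44.0), Mir206 (18.4 ± 11.1), Mir208a (9.86 ± 2.54), Mir499 (7.84 ± 0.177), Mir133b (0.460 ± 0.154) and Mir1a-1 (0.142 ± 0.201, SD, n = 2), with the Mir133a genes at 0. CPM per 100 bases of hairpin had the same order, with means of 90.0 for Mir208b, 25.2 for Mir206, 11.9 for Mir208a and 9.92 for Mir499. These hairpins are 73 to 83 bases long, too alike for scaling by length to change their order, so it gives the order no support. Several neighbours in the order had counting intervals that overlapped in a library, and overlap is not a test of their difference. Those of Mir208b and Mir206 overlapped in replicate 1, where Mir208b had 1.45 times the counts of Mir206, against 9.54 times in replicate 2. Mir206 was below Mir208a in replicate 2 and above it in replicate 1. Mir208a and Mir499 overlapped in both libraries. Mir499 and Mir133b were separated in both.

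The balance of cardiac and skeletal reads differed between the pools by more than counting error. The spread between pools was not part of that comparison. Cardiac and skeletal name the gene groups here and not the cells. The 3 cardiac myosin intron genes summed to 422 counts in replicate 2 and 154 counts in replicate 1, or 120.0 CPM and 54.0 CPM. Mir206 and Mir133b summed to 39 counts in replicate 2 and 76 counts in replicate 1, or 11.1 CPM and 26.6 CPM. The cardiac genes thus made up 91.5% of the reads of the 5 genes in replicate 2 (88.6% to 93.9%) and 67.0% in replicate 1 (60.5% to 73.0%), and the intervals do not overlap. Mir208b alone held 76.4% of the uniquely placed muscle reads in replicate 2 (72.3% to 80.2%) and 47.4% in replicate 1 (40.8% to 54.1%). Without it the cardiac genes had 19.6 CPM in replicate 2 and 15.8 CPM in replicate 1, their share was 63.9% in replicate 2 and 37.2% in replicate 1, and the sum of all members, 1.63-fold in replicate 2 relative to replicate 1 with Mir208b, was 0.731-fold. The labels do not say which cells the reads came from. In bulk tissue, fewer cells of a type and less RNA per cell cannot be told apart.

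**Figure D2:**
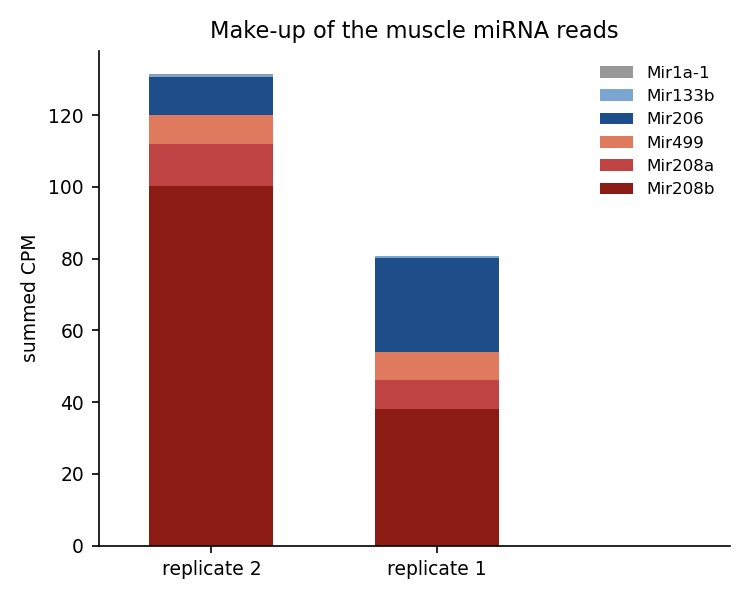
Summed CPM of the muscle miRNA genes in replicate 2 (left bar) and replicate 1, stacked by gene from Mir208b at the base. The red cardiac segments reach 120.0 CPM in replicate 2, against 54.0 CPM in replicate 1, and the blue Mir206 segment is 10.5 CPM in replicate 2 and 26.3 CPM in replicate 1.

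Mir208b and Mir206 stood at opposite edges of the spread between the pools. Of the 4 members with at least 10 counts in all, 1 was higher (Mir208b) and 1 lower (Mir206) in replicate 2 past the exact binomial test, and 2 did not pass (Mir208a and Mir499). The share called, 2 of 4, is to be read against the 40.3% of all genes called. The median log2 ratio of these 4 members was 0.27, beside 0.01 over the 449 genes tested. In size both called differences were far out. Of the 320 genes that averaged 10 CPM or more, only Mir219a-2 had a higher log2 ratio (2.71) than Mir208b, and only Mir7b (-1.37) and Mir451a (-1.32) had lower ratios than Mir206. When the spread between the pools was added to counting error, with the common dispersion edgeR estimated from both libraries over all genes (biological coefficient of variation 0.178), edgeR's exact test called 1 gene of 449 (0.223%), Mir219a-2, and 21 had an unadjusted p under 0.05. Neither muscle gene then passed (adjusted p = 0.0659 for Mir208b and 0.306 for Mir206).

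**Figure D3:**
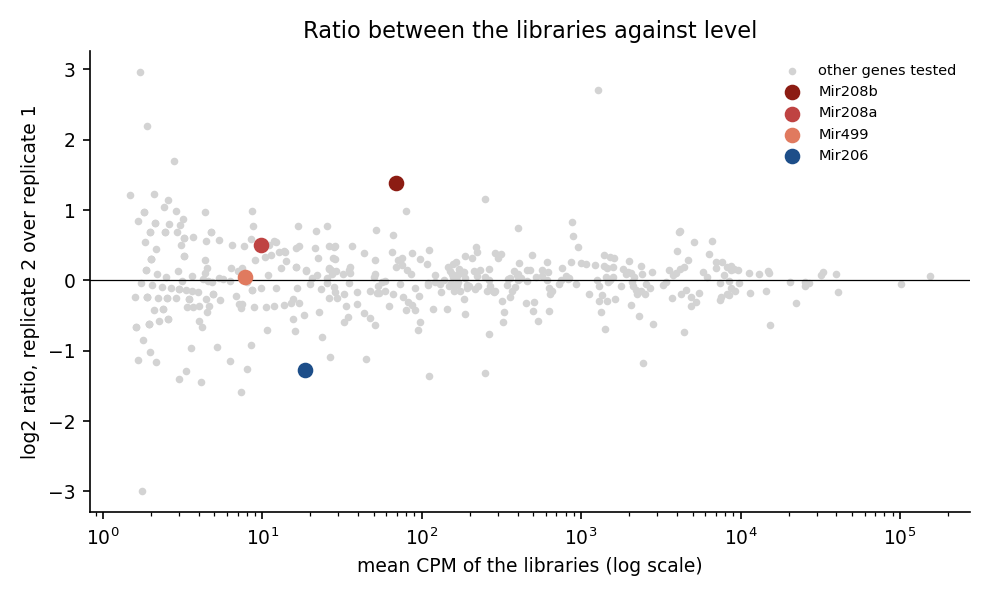
Log2 ratio of replicate 2 over replicate 1 against mean CPM (log axis) for the 449 genes with at least 10 counts in all, with the 4 tested muscle genes coloured. Mir208b lies at 1.38 and Mir206 at -1.28, outside the bulk of genes at their level, while Mir208a (0.51) and Mir499 (0.04) lie within it.

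The summed erythroid, epithelial and mesenchymal markers were lower in replicate 2, the direction of Mir206 and the opposite of Mir208b. In the erythroid list nearly all of this came from Mir451a, while Mir144 was slightly lower and Mir486 higher. Mir451a, the red cell miRNA, had 143 CPM in replicate 2 and 359 CPM in replicate 1, and the erythroid list (Mir451a, Mir144 and Mir486) had a sum of 205 CPM in replicate 2, against 420 CPM in replicate 1, with 3 of 3 members detected, 1 lower past the exact binomial test (Mir451a) and 2 that did not pass. Mir144 had 37.0 CPM in replicate 2 and 41.4 CPM in replicate 1, and Mir486 had 25.0 CPM in replicate 2, against 19.98 CPM in replicate 1. The epithelial markers (Mir200a, Mir200b, Mir200c, Mir141, Mir429, Mir203 and Mir205) had 23965 CPM in replicate 2 and 28691 CPM in replicate 1, with 7 of 7 detected and 6 lower in replicate 2 past the exact binomial test. The mesenchyme list (Mir143, Mir145a, Mir199a-1, Mir199a-2 and Mir214) had 21977 CPM in replicate 2 and 24651 CPM in replicate 1, with 5 of 5 detected and 2 lower past the test. Over all genes 20.3% were lower past it, and with the common dispersion edgeR's exact test called 0 members of the 3 lists, with 1 (Mir451a) at an unadjusted p under 0.05. The direction of the sums was not particular to these lists. The leukocyte (0.975-fold), liver (0.947-fold) and neural (0.878-fold) sums were also lower in replicate 2 relative to replicate 1. Of the leukocyte and liver members, 0 passed the exact binomial test. In the neural list the members were split. Past that test 2 were higher in replicate 2 (Mir124a-2 and Mir124a-3) and 1 was lower (Mir9-3, 28.4 CPM in replicate 2 and 41.0 CPM in replicate 1). Mir126a, the endothelial miRNA, went the other way with 34369 CPM in replicate 2 and 31642 CPM in replicate 1. Mir451a, Mir486, Mir199a-1, Mir199a-2 and Mir126a share a 20-base run with another miRNA gene, so their levels are uncertain. No list was at 0 in either library. The part of these cell types in the values of Mir208b and Mir206 was not tested.

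The epithelial, mesenchymal and endothelial markers were the most abundant of the lists, and the muscle miRNAs counted were a trace beside them. The muscle sum covers uniquely placed reads only and lacks Mir1a-2, so it may be too low and the folds too high. The mesenchyme sum was 167 times the muscle sum in replicate 2 and 306 times in replicate 1, and the epithelial sum was 182 times in replicate 2 and 356 times in replicate 1. The other lists were nearer to the muscle genes. The leukocyte list (Mir142, Mir223, Mir155 and Mir150, of which 3 were analysed) had 422 CPM in replicate 2, against 433 CPM in replicate 1. The liver list (Mir122, Mir192, Mir194-1 and Mir194-2) had 149 CPM in replicate 2, against 158 CPM in replicate 1. The neural list (Mir9 and Mir124a genes) had 37.2 CPM in replicate 2 and 42.4 CPM in replicate 1, and all 5 of its analysed genes share a 20-base run with another gene. The muscle sum stood below the leukocyte, erythroid and liver sums in both libraries. It stood above the neural sum, but that ranking depends on which neural genes were listed. Mir137, a neuronal miRNA outside the list, had 593 CPM in replicate 2 and 680 CPM in replicate 1, more than the muscle sum.

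**Figure D4:**
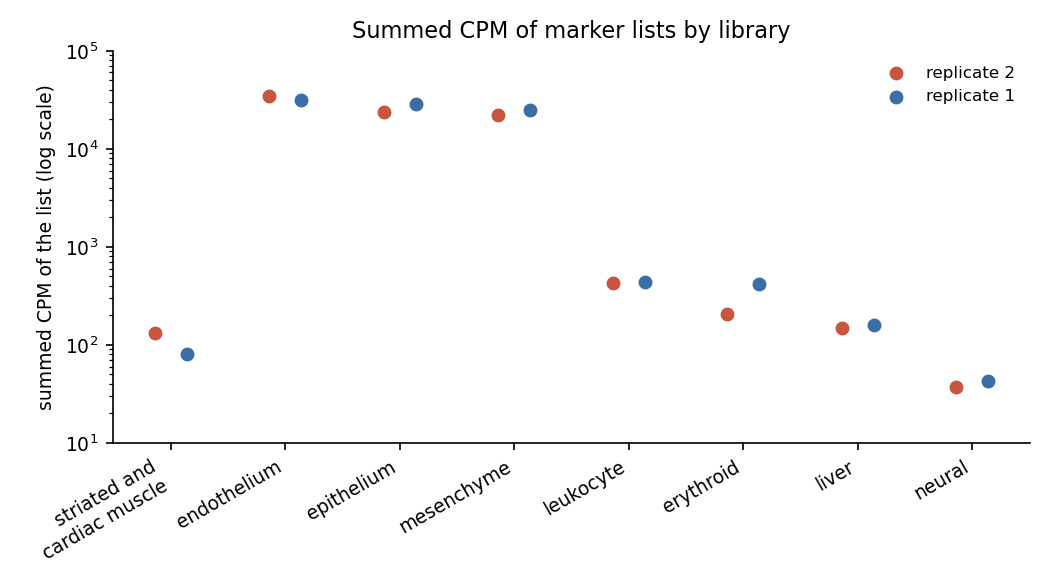
Summed CPM on a log axis for the muscle genes and 7 lists of marker miRNAs, in replicate 2 (left of each pair) and replicate 1. The muscle genes, at 131 CPM in replicate 2 and 80.6 CPM in replicate 1, lie far below the epithelial, mesenchymal and endothelial lists and close to the liver list.

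Other miRNAs with known roles in muscle had a far higher sum than the muscle-restricted genes as counted, most of it from Mir143, while single genes among them lay below Mir208b. Of 21 listed, 19 were analysed and 15 detected, and they had a sum of 12891 CPM in replicate 2, against 14602 CPM in replicate 1. Of the 16 tested, 2 were higher and 4 lower in replicate 2 past the exact binomial test and 10 did not pass, with a median log2 ratio of -0.09. The share called, 37.5%, is close to the 40.3% of all genes, and edgeR's exact test with the common dispersion called 0 of the 16, with 0 at an unadjusted p under 0.05. The directions below are those of the binomial test alone. Mir143, a miRNA of smooth muscle and mesenchyme, had 7851 CPM in replicate 2 and 9047 CPM in replicate 1 and was lower in replicate 2 (log2 ratio -0.20). Mir145a, from the same cluster, had 124 CPM in replicate 2 and 139 CPM in replicate 1 (-0.17, adjusted p = 0.209). Mir181a-1 and Mir181a-2, which act in myoblast differentiation, were lower, at -0.14 and -0.32. Mir27b, which targets Pax3 in muscle progenitors, had 1249 CPM in replicate 2 and 1449 CPM in replicate 1 (-0.21) and was also lower. Mir31, known for targeting Myf5 in muscle stem cells, was higher, with 281 CPM in replicate 2 and 251 CPM in replicate 1 (0.17), and so was Mir26a-1 (0.99), with 11.7 CPM in replicate 2 and 5.61 CPM in replicate 1. Mir486, a myomiR of the Ank1 gene that red cells also make, had 25.0 CPM in replicate 2 and 19.98 CPM in replicate 1 (0.32, adjusted p = 0.373). Mir133c had 0 counts in both libraries. Mir27b, both Mir181a genes, Mir26a-1 and Mir486 share a 20-base run with another miRNA gene, so their levels are uncertain.

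By level in the libraries, the genes most like each detected member among the other 375 detected genes came from several chromosomes. Likeness was the distance between log2(CPM + 0.5) values over the 2 libraries, which share depth and so give no more than a description. Nearest to Mir208b was Mir294, of the early embryonic Mir290 cluster, with 105 CPM in replicate 2 and 52.9 CPM in replicate 1 (distance 0.470), then Mir196b, a Hox cluster miRNA, and Mir5126. Nearest to Mir206 was Mirlet7a-2, with 11.9 CPM in replicate 2 and 19.98 CPM in replicate 1 (distance 0.425), then Mir741 and Mir1198. Nearest to Mir208a were Mir5618, Mir3075 and Mir147, within a distance of 0.231. Nearest to Mir499 were Mir6399, with the same counts in both libraries, Mir3081 and Mir3064, within a distance of 0.129.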

How the data were processed

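The deposited files give, for each miRNA gene, raw counts of reads from small RNA libraries (inserts below 30 nt, per the labels), on mm10 with GENCODE M4, per the text files beside the tables. Which aligner was used is not given in the sources used here. After 4 summary lines, which stayed out of library sizes, each gene has a count on either strand, on its own strand and on the opposite strand. The count on the gene's strand (97.6% of gene reads in each library) was used for CPM. Its reading as the gene's strand rests on the values. Symbols, loci and hosts were looked up in GENCODE M21, also on GRCm38, by identifier without version; 1894 of 1973 matched.

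The 2 libraries differ by more than counting error and were taken as separate biological replicates. With 1 group, no contrast could be fitted with edgeR's quasi-likelihood test, so genes with 10 or more counts over both libraries were compared between them by a two-sided exact binomial test (scipy 1.17.1) against the share of the library totals, with Benjamini-Hochberg adjustment and a threshold of 0.05. Log2 ratios use a pseudocount of 0.5 CPM; their intervals and folds use none. Detected means at least 10 counts in each library. An edgeR 4.0.16 exact test used the common dispersion of an intercept-only fit of the same libraries, and DESeq2 1.42.0 gave size factors. The binomial procedure was tested on simulated counts that held counting error alone. With no spread between pools in them, that check does not bear on how the procedure behaves under such spread. The genes named are the members, a list of other muscle-related miRNAs, tissue markers, and the 3 genes nearest in level to each detected member; Mir219a-2, Mir7b and Mir451a were named after their ratios were seen. The members and lists were chosen with earlier results of these data known. In all, 42 alternatives were planned and 6 were added after the data were seen.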

Additional observations from a re-analysis of the deposited data

How the results depend on the processing

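Under the other strand setting, TMM or DESeq2 scaling, totals without the 10 highest genes and other pseudocounts (the last for the ratio only), Mir208b kept a log2 ratio of 1.37 to 1.40 and Mir206 one of -1.31 to -1.24, and both stayed past the exact binomial test (largest adjusted p 3.41e-20 and 1.48e-05). Under other minimum counts 2 muscle genes were called, as with 10 counts. With the common dispersion in edgeR's exact test, added after the data were seen, neither passed: the fitted log2 ratios were 1.41 (adjusted p = 0.0659) and -1.30 (adjusted p = 0.306), 1 gene was called (181 in the binomial test), and 0 muscle genes (2 in the binomial test). That test adds the spread between the pools to counting error. The muscle sum was 212 CPM with totals that leave out the 10 highest genes, a smaller denominator by construction, and 36.7 CPM without Mir208b; it was 80.6 to 131 CPM with a single library. The cardiac share averaged 79.2% over the libraries, 67.0% to 91.5% with a single library, 78.4% per base of hairpin and 50.5% without Mir208b. In all settings run, 4 muscle genes were detected. No paired analysis was possible because the series holds 1 group. At this depth no ratio between the libraries could be given for Mir133b, Mir1a-1, Mir133a-1 and Mir133a-2, whose counts were at or under 3, and with 2 libraries no permutation test over samples is possible.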
